A study of Mus musculus with 2 samples.

Results

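The striated muscle miRNA genes Mir206, Mir133b, Mir208a, Mir208b, Mir499, Mir1a-1, Mir1a-2, Mir133a-1 and Mir133a-2 were followed in small RNA libraries of mouse facial prominence. They were chosen by name, as the miRNA genes known from skeletal and heart muscle, with earlier results of these data known. They make up 9 genes, of which 8 were analysed here among the 1973 annotated genes counted by the authors. Of the 1973 genes, 683 had any count. Mir1a-2 was not analysed here. The tissue was facial prominence of B6NCrl embryos at day 13.5, with both sexes pooled, and RNA of under 30 bases was sequenced. The 2 libraries are biological replicates 1 and 2 of 1 group with no genotype or treatment, so no condition is set against another. Both carry the same donor record in the labels, although they are labelled biological replicates. Whether differences between them are biological or technical was not tested. Counts on miRNA genes totalled 4562135 in replicate 1 and 5771249 in replicate 2, which was 44.1% of the reads of each library. Reads with several places in the genome made up 30.7% of replicate 1 and 31.0% of replicate 2 and are in no gene's count.

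MicroRNAs are short RNAs that are cut from a hairpin and repress messenger RNAs that pair with their seed, bases 2 to 8. The muscle miRNAs fall into 3 kinds. Mir206 and Mir133b are skeletal muscle genes that switch on as myoblasts differentiate. Mir208a, Mir208b and Mir499 lie inside myosin heavy chain genes and are known from the heart and from slow muscle. The Mir1a and Mir133a genes are active in both heart and skeletal muscle and are present as pairs of copies. In the head, muscles of the jaw, eye, face and tongue form from cranial mesoderm and from somite cells that move forward, and they differentiate while the facial prominences grow.

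The mature sequences below, from RefSeq (GRCm38.p6), are shown because their likeness decides which reads could be given to 1 gene. They are written 5′ to 3′ with the seed in capitals. The 3 arms miR-208a-3p, miR-208b-3p and miR-499-5p are set together because their seeds are alike.
miR-206-3p: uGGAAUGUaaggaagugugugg
miR-206-5p: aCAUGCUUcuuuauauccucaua
miR-133b-3p: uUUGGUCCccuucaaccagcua
miR-133b-5p: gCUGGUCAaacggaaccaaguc
miR-208a-3p: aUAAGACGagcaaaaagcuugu
miR-208b-3p: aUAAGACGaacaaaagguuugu
miR-499-5p: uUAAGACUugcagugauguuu
miR-1a-1-5p: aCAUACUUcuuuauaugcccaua

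The arms miR-208a-3p and miR-208b-3p had the same seed and differed at 3 of 22 bases, by G10A, A16G and C18U, counted from 1 at the 5′ end with the miR-208a base first. The seed of miR-499-5p differed from theirs in its last base (G8U, with the miR-208b base first), and the arms differed at 11 of 21 bases. Among 1679 RefSeq mature sequences the shared seed of the Mir208 arms occurred 2 times, at these 2 genes alone. The seed of miR-206-3p occurred 3 times among them, the others being at Mir6349 and Mir6382. That number leaves out miR-1a-3p, which is known to have this seed. The arms miR-1a-3p and miR-133a-3p were not used here. The arm miR-206-3p differed at 4 of 22 bases from the nearest stretch of the Mir1a-1 hairpin, with its first 10 bases the same. The arm miR-133b-3p differed from the Mir133a-2 hairpin at 1 of 22 bases, the last, so a read that stops after 21 bases could come from either gene. The other arm, miR-133b-5p, differed from it at 3 of 22 bases.

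The hairpin of Mir206 and that of Mir208b, the members with the most and the next most counts, are shown with their mature arms in capitals (RefSeq, GRCm38.p6).
Mir206, chr1:20679010-20679082, plus strand: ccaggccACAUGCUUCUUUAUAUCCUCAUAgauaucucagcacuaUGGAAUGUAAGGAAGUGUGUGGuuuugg
Mir208b, chr14:54975700-54975776, minus strand: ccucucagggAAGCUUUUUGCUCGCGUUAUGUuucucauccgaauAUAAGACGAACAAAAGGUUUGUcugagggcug

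The genes lie at 5 loci (GRCm38, GENCODE M21). Mir206 and Mir133b (20682769 to 20682887) lie 3686 bases apart on the plus strand of chromosome 1, within the long noncoding RNA gene Gm28653 (20669882 to 20684298). Its first base is that of Lincmd1 in RefSeq, a muscle RNA known in mouse myoblasts. In its spliced transcript Mir206 falls in intron 2 and Mir133b in exon 3, and in an unspliced transcript both are exonic. Mir208a (chromosome 14, 54949060 to 54949142, minus strand) lies in intron 29 of Myh6, the alpha heavy chain of cardiac myosin. Mir208b lies in intron 31 of the neighbouring gene Myh7, the beta heavy chain of cardiac and slow skeletal muscle, 26557 bases from Mir208a. Mir499 (chromosome 2, 155622880 to 155622958, plus strand) lies in intron 19 of Myh7b, a slow muscle and heart myosin. On the plus strand of chromosome 2, Mir1a-1 (180389048 to 180389124) and Mir133a-2 (180398379 to 180398482) are 9254 bases apart with no annotated host. The other copies, Mir133a-1 (10782909 to 10782976) and Mir1a-2 (10785481 to 10785552), lie 2504 bases apart on the minus strand of chromosome 18. They fall in intron 1 of Mir133a-1hg and opposite an intron of Mib1. The files identify the genes with counts as ENSMUSG00000065559 (Mir206), ENSMUSG00000065480 (Mir133b), ENSMUSG00000065432 (Mir208a), ENSMUSG00000077928 (Mir208b) and ENSMUSG00000076312 (Mir499).

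Annotated hairpins were compared in windows of 22 bases, about the length of a mature miRNA, to see which members have sequence of their own. Every window of Mir206 (52), Mir133b (98), Mir208a (62), Mir208b (56) and Mir499 (58) was found at 1 place among the 2202 annotated miRNA hairpins. Of the 1894 hairpins whose genes the authors counted, 1002 (52.9%) had that property. The multi-copy genes had stretches in common with their partner. Mir1a-1 and Mir1a-2 share an unbroken run of 28 bases and Mir133a-1 and Mir133a-2 one of 31 bases. Even so, 49 of 56 windows of Mir1a-1, 34 of 47 of Mir133a-1 and 70 of 83 of Mir133a-2 were found at 1 place. Mir133b shares an unbroken run of 21 bases with each Mir133a hairpin, just short of the window length. In windows of 20 bases, 98.0% of those of Mir133b had 1 place. The genome outside these hairpins was not searched.

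**Figure D1:**
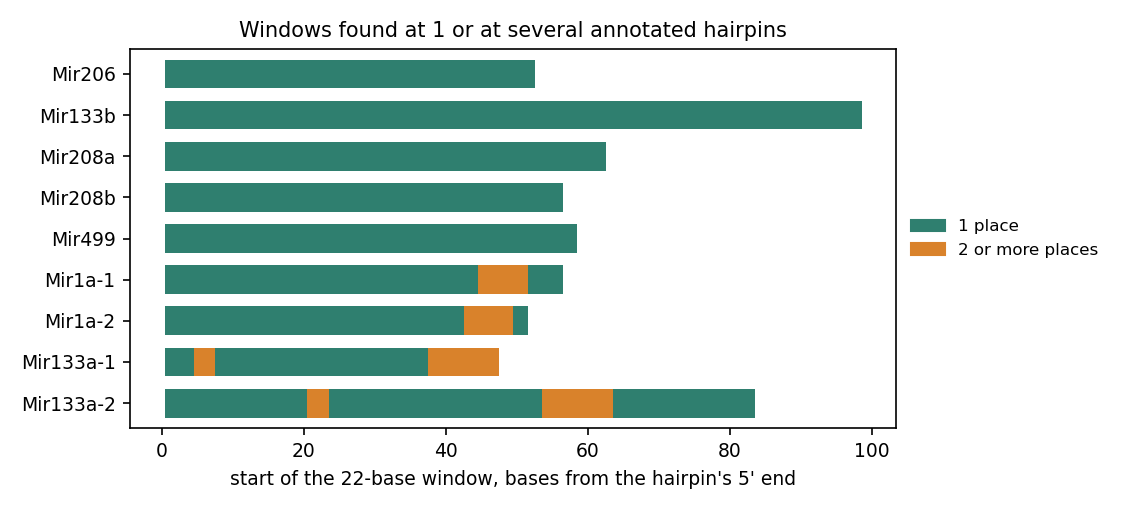
Each row is the hairpin of 1 gene and the x axis is the start of a 22-base window in bases from its 5′ end, coloured by whether the window occurs at 1 or at 2 or more annotated hairpins. All windows of the first 5 genes have 1 place, while the Mir1a and Mir133a hairpins carry shared blocks. The run of 21 bases that Mir133b shares with the Mir133a hairpins is too short to show in 22-base windows.

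By uniquely placed reads, muscle miRNAs were a small part of the facial prominence, and Mir206 made up most of them. The 8 genes together had 2881 counts in replicate 1 and 2329 in replicate 2. These were 0.0632% of gene counts in replicate 1 (95% Wilson interval 0.0609 to 0.0655) and 0.0404% in replicate 2 (0.0387 to 0.0420), or 0.0518 ± 0.0161% (SD, n = 2). Intervals cover counting error only and treat reads as independent. PCR copies are not independent molecules, so the intervals may be too narrow. The replicate intervals did not overlap. In bulk tissue, fewer muscle cells and less miRNA per muscle cell cannot be told apart.

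Mir206, which promotes differentiation of skeletal myoblasts, had 2600 counts in replicate 1 and 1810 in replicate 2. That was 570 CPM in replicate 1 (counts per 1000000 gene counts, 95% Wilson interval 548 to 592) and 314 CPM in replicate 2 (300 to 328). Its mean of 442 ± 181 CPM (SD, n = 2) placed it at rank 120 of the 1973 genes. On log2 CPM in the 2 libraries, the 3 tested genes nearest to it were Mir106a at a distance of 0.48 (416 CPM in replicate 1, 281 CPM in replicate 2), Mir669l at 0.49 and Mir300 at 0.51.

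Mir133b, which lies beside Mir206 and is known from skeletal muscle too, had 60 counts in replicate 1 and 64 in replicate 2. These were 13.2 CPM in replicate 1 (95% Wilson interval 10.2 to 16.9) and 11.1 CPM in replicate 2 (8.69 to 14.2), and the intervals overlapped. Mir206 exceeded it 43.3 times in replicate 1 (95% exact interval 33.6 to 57.0) and 28.3 times in replicate 2 (22 to 36.9), and these intervals overlapped. The mature arms of both genes have 22 to 23 bases, but the counts are per gene and do not show which arm or length was read. The comparison is uncertain, because a miR-133b-3p read without its last base also matches the Mir133a genes and would not be counted at either; how many such reads there were was not tested.

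Of the myosin-hosted genes, Mir208b was the highest. Mir208b, from the slow and beta cardiac myosin gene, had 178 counts (39.0 CPM, 95% Wilson interval 33.7 to 45.2) in replicate 1 and 350 counts (60.6 CPM, 54.6 to 67.3) in replicate 2, at rank 230. Mir499, from Myh7b, had 27 counts (5.92 CPM, 4.07 to 8.61) in replicate 1 and 59 counts (10.2 CPM, 7.93 to 13.2) in replicate 2. Mir208a, the heart miRNA of Myh6, was the lowest, with 16 counts (3.51 CPM, 2.16 to 5.70) in replicate 1 and 46 counts (7.97 CPM, 5.98 to 10.6) in replicate 2. Means were 49.8 ± 15.3 CPM for Mir208b, 8.07 ± 3.04 CPM for Mir499 and 5.74 ± 3.16 CPM for Mir208a (SD, n = 2 each). In both libraries the order by uniquely placed counts was Mir206, Mir208b, Mir133b, Mir499 and Mir208a. The place of Mir133b is uncertain, since its shortened miR-133b-3p reads would not be counted. The intervals of Mir499 overlapped those of Mir208a in each library, and in replicate 2 also those of Mir133b, so these neighbours in the order were not separated there. Mir133b and Mir208a (5.98 to 10.6 CPM) also overlapped in replicate 2. In replicate 1 Mir133b (10.2 to 16.9 CPM) lay above Mir499.

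Mir208b exceeded Mir208a 11.1 times in replicate 1 (95% exact interval 6.66 to 19.9) and 7.61 times in replicate 2 (5.58 to 10.6). It exceeded Mir499 6.59 times in replicate 1 (4.38 to 10.3) and 5.93 times in replicate 2 (4.49 to 7.96). For both ratios the intervals of the libraries overlapped. The genes closest to Mir208b in level were Mir193b at a distance of 0.28, with 44.3 CPM in replicate 1 and 70.0 CPM in replicate 2, then Mir1298 at 0.29 and Mir383 at 0.42.

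**Figure D2:**
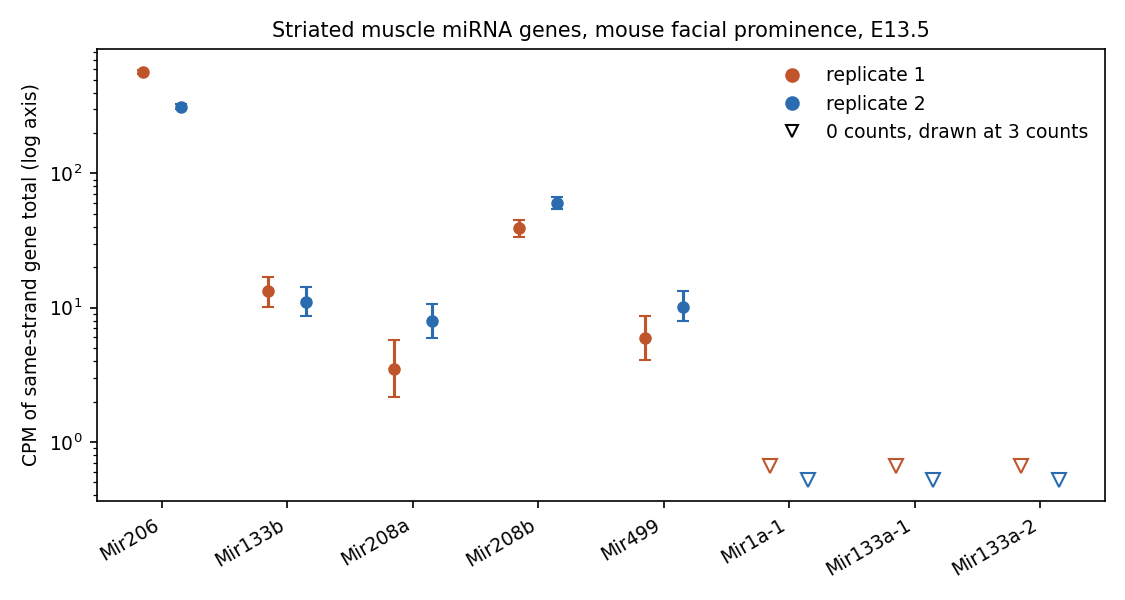
Level of each gene in CPM (log axis) in replicate 1 (left of each pair) and replicate 2, with bars for the 95% Wilson interval; open triangles mark 0 counts, drawn at the 3 counts that 0 allows. Mir206 has 570 CPM in replicate 1 against 314 CPM in replicate 2, while the Mir208 and Mir499 points lie higher in replicate 2.

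The multi-copy genes had no counts. Mir1a-1, Mir133a-1 and Mir133a-2, which encode the abundant miR-1a and miR-133a of heart and skeletal muscle, had 0 counts on either strand in both libraries. With 0 counts, a level of up to 3 counts is possible, or 0.658 CPM in replicate 1 and 0.520 CPM in replicate 2. That limit holds only for reads placed uniquely, such as those of miR-1a-1-5p, which occurs at 1 place among annotated hairpins and differs from the Mir1a-2 hairpin at 2 of 23 bases. It sets no limit on miR-1a-3p or miR-133a-3p, which are known to be the same in both copies, since reads with several places are in no gene's count. A low level of these miRNAs and a high level with uncounted reads therefore cannot be told apart in these counts.

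A gene annotated opposite Mir1a-2 had a few reads. Mir1b, on the plus strand of chromosome 18 (10785446 to 10785567), had 1 count on its own strand in replicate 1 and 12 in replicate 2. On the strand of Mir1a-2 the same line had 2 counts in replicate 1 and 0 in replicate 2, too few to give a level. No other miRNA gene overlapped a member.

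The make-up of the muscle counts differed between the libraries. Mir206 held 90.2% of them in replicate 1 (2600 of 2881, 95% Wilson interval 89.1 to 91.3) and 77.7% in replicate 2 (1810 of 2329, 76.0 to 79.4). The myosin-hosted genes held 7.67% in replicate 1 (6.75 to 8.70) and 19.5% in replicate 2 (18 to 21.2). Mir206 exceeded Mir208b 14.6 times in replicate 1 (95% exact interval 12.5 to 17.1) and 5.17 times in replicate 2 (4.61 to 5.82). It exceeded the sum of Mir208a, Mir208b and Mir499 11.8 times in replicate 1 (10.3 to 13.6) and 3.98 times in replicate 2 (3.59 to 4.42). None of these pairs of intervals overlapped.

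**Figure D3:**
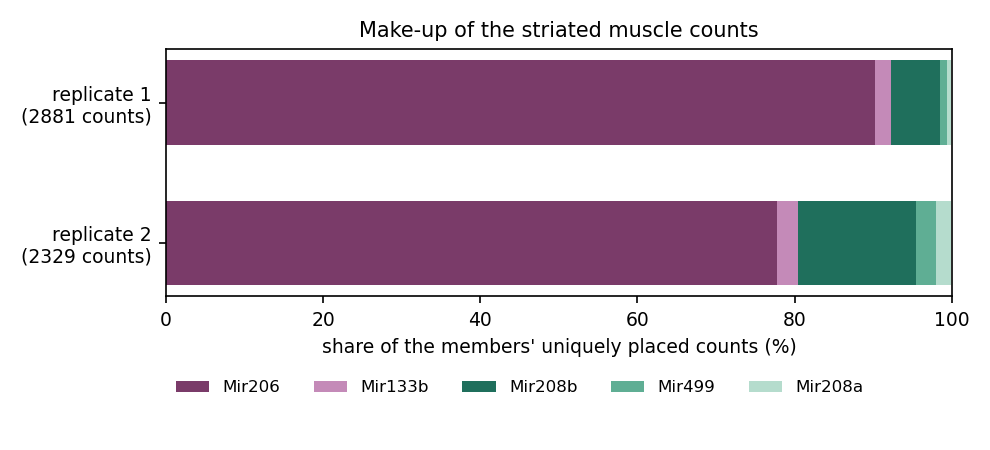
Share of the muscle counts (percent) held by each of the 5 genes with counts, one bar per library with replicate 1 above replicate 2. The Mir206 segment ends at 90.2% in replicate 1 and at 77.7% in replicate 2, and the green segments of the myosin-hosted genes are wider in replicate 2.

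Set against counting error, 4 of the 5 genes with at least 10 counts in both libraries differed between the replicates, 1 higher in replicate 1 and 3 higher in replicate 2. Such differences were common, since 55.0% of all 360 tested genes passed the same test, 27.2% higher in replicate 1 and 27.8% higher in replicate 2. The exact binomial test compares these libraries and not conditions. Mir206 was higher in replicate 1, with a log2 ratio of replicate 1 to replicate 2 of 0.86 (95% interval 0.78 to 0.95, adjusted p = 1.66e-85, exact binomial test with Benjamini-Hochberg adjustment over 360 genes). Mir133b had a log2 ratio of 0.25, and its interval (-0.29 to 0.78) held 0 and ended where the Mir206 interval began (adjusted p = 0.456, exact binomial test).

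The 3 myosin-hosted genes were higher in replicate 2. Mir208a had a log2 ratio of replicate 1 to replicate 2 of -1.16 (95% interval -2.10 to -0.34, adjusted p = 0.00980, exact binomial test). Mir499 had a log2 ratio of -0.77 (-1.50 to -0.11, adjusted p = 0.0322, exact binomial test), and its adjusted p was 0.0535 when genes without a count minimum were tested together. Mir208b had a log2 ratio of -0.63 (-0.90 to -0.37, adjusted p = 4.18e-06, exact binomial test). The intervals of these 3 ratios overlapped one another and lay below that of Mir206.

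Depth sets how these ratios compare with those of other genes. Among the 155 tested genes whose mean count reached 1000, the median absolute log2 ratio was 0.15 and the 90th percentile 0.37; Mir206 had the second largest of them, after Mir10a. Mir208b ranked 19 of the 112 genes with mean counts from 100 to under 1000, where the median absolute log2 ratio was 0.23. Among the 93 genes with mean counts under 100, where it was 0.48, Mir208a ranked 6, Mir499 ranked 21 and Mir133b ranked 73. The 5 muscle genes had a median absolute log2 ratio of 0.77, against 0.24 for all tested genes. Of all tested genes, 57 (15.8%) lay beyond 1.5-fold, and so did 4 of the 5 muscle genes. Neither of these comparisons with all tested genes is matched for depth, and Mir208a, Mir499 and Mir133b have mean counts under 100.

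**Figure D4:**
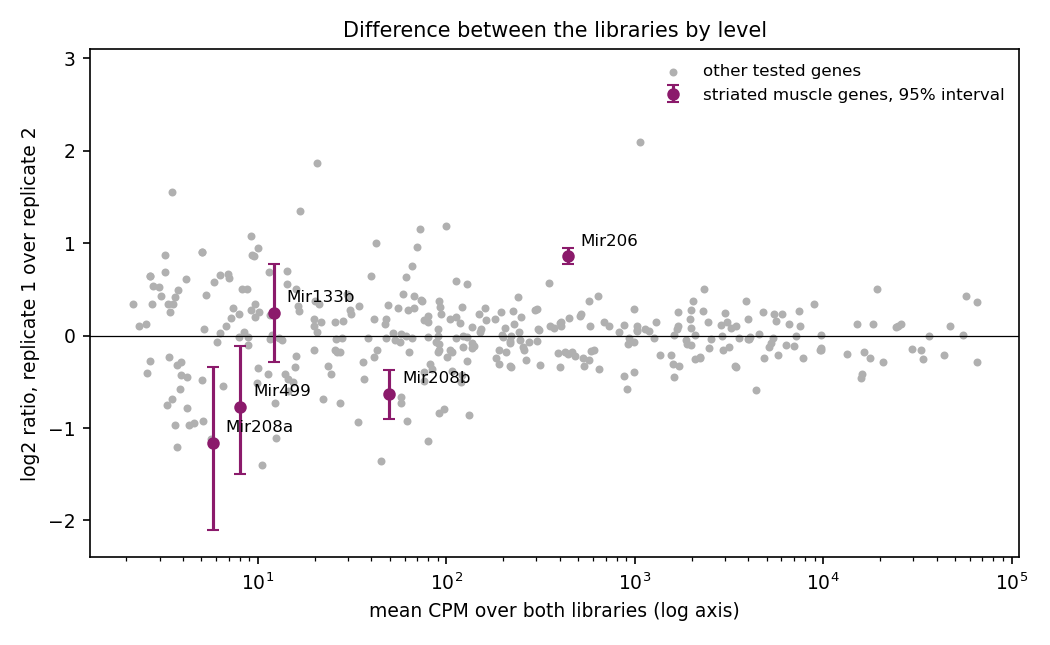
Log2 ratio of replicate 1 over replicate 2 (y axis) against mean CPM (x axis, log) for the 360 tested genes, with 95% intervals on the 5 muscle genes. Mir206 lies at 0.86, above nearly all genes of its level, and Mir208a, Mir499 and Mir208b lie below 0.

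Genes known from muscle precursors or muscle growth but not restricted to muscle did not shift one way. Of 15 on that list, 13 were analysed here and 12 had at least 10 counts in both libraries. Replicate 1 had the higher value of 3 genes and replicate 2 of 3 genes, while 6 missed the threshold, with a median log2 ratio of -0.01 against 0.01 for all tested genes. Mir322, tied to cell cycle exit of myoblasts, had 40541 CPM in replicate 1 and 47043 CPM in replicate 2 (log2 ratio -0.21). Mir27b, which targets the muscle precursor gene Pax3, had 4577 CPM in replicate 1 and 4509 CPM in replicate 2. Mir431, a miRNA of muscle stem cells, had 3243 CPM in replicate 1 and 2923 CPM in replicate 2. The list's ratios ran between -0.32 and 0.43, so none of them passed 1.5-fold. All 4 muscle genes past the test did, but the sets were not matched for depth. A gene with few counts passes the test only where its ratio is large. The contrast therefore does not set Mir208a and Mir499 apart, with mean counts of 31.0 and 43.0. That reason does not cover Mir206, with a mean count of 2205. A comparison of the list with Mir206 or Mir208b at matched depth was not made.

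Markers of other tissues also moved between the libraries, some the way of Mir206 and some the way of the myosin-hosted genes. Of the 6 Hox cluster genes, 5 were tested: Mir10a (log2 ratio 2.10), Mir615 (1.19) and Mir10b (0.50) stood higher in replicate 1, whereas Mir196b (-0.02) and Mir196a-2 (0.30) missed the threshold. The untested Mir196a-1 had 8 counts in replicate 1 and 1 in replicate 2. The list summed to 4655 CPM in replicate 1 and 2451 CPM in replicate 2. The red blood cell genes Mir144 (-1.36) and Mir451a (-0.39) were higher in replicate 2, while Mir486 (0.20), which also stands on the muscle growth list, did not pass, and the 3 summed to 101 CPM in replicate 1 and 160 CPM in replicate 2. Mir122, the liver miRNA, was higher in replicate 2 (-1.14), with 49.5 CPM in replicate 1 and 109 CPM in replicate 2. The smooth muscle genes Mir143 and Mir145a were higher in replicate 2 by far less (-0.24 and -0.15), and the cartilage genes Mir140 (-0.29) and Mir455 (0.26) went opposite ways. Of 7 epithelial genes, Mir203 (0.51) and Mir205 (0.13) were higher in replicate 1 and the 5 genes of the Mir200 family (-0.59 to -0.11) were higher in replicate 2, with sums of 63539 CPM in replicate 1 and 63309 CPM in replicate 2. Of 6 neural genes tested, Mir128-1 (0.59) and Mir128-2 (1.00) were higher in replicate 1, Mir138-2 (-0.27) was higher in replicate 2, and Mir137 (0.06), Mir138-1 (-0.03) and Mir9-3 (0.67) missed the threshold. The endothelial gene Mir126a was higher in replicate 1 (0.11). The neural markers Mir124a-1, Mir124a-3 and Mir9-2 had 0 counts and Mir124a-2 had 1 in each library, Mir9-1 was not analysed here, and their reads too can have several places. The part of any of these tissues in the muscle shift was not tested.

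**Figure D5:**
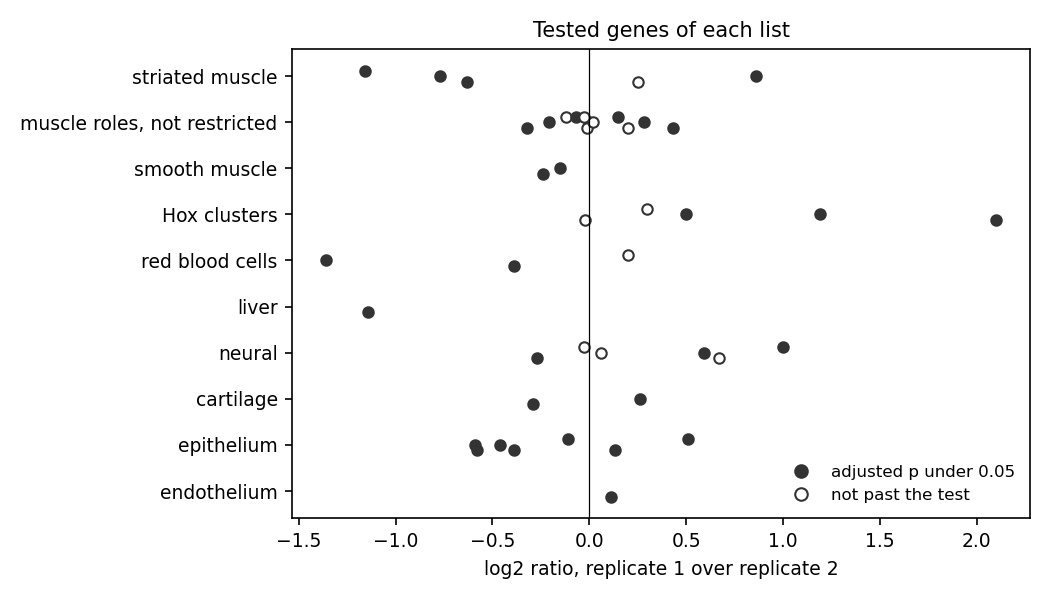
Log2 ratio of replicate 1 over replicate 2 for the tested genes of the striated muscle group and of 9 other lists, filled where the exact binomial test passed. Hox cluster genes run from -0.02 to 2.10. Mir208a, Mir499 and Mir208b lie on the replicate 2 side, while most other lists have genes on both sides. Mir144, Mir451a and the liver gene Mir122 also lie on the replicate 2 side, while the red blood cell gene Mir486 (0.20) lies on the replicate 1 side.

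Promoter windows of the host genes, from 250 bases before to 50 bases after each RefSeq start, were read for motifs. They describe the loci, and a link of the motifs to the differences between the libraries was not tested. The window of Lincmd1, which carries Mir206 and Mir133b, is shown 5′ to 3′ (GRCm38.p6) with motif matches in capitals.
Lincmd1, chr1:20669632-20669931, plus strand: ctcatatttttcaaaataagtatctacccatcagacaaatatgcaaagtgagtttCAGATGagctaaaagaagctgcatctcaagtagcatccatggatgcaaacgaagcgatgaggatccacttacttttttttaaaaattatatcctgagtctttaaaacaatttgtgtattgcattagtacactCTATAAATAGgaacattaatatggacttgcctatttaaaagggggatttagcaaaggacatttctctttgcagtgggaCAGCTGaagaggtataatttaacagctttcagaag

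The motifs searched on both strands were CANNTG (the E-box of myogenic factors), CATTCC (the MCAT element), the TATA element TATAAA and, by its name alone, the MEF2 element. The Lincmd1 window held E-box matches 195 bases before and 15 bases after the start, and a MEF2 match 63 bases before it that overlaps a TATA match. The window of Myh7b held 2 E-box matches and that of Myh6 held 1, besides a TATA match that begins 1 base after its start. The windows of both Myh7 starts overlap and hold the same 2 E-box matches. An MCAT match lay 206 bases before the Myh6 start and 201 bases before one of the Myh7 starts. Of all 32851 promoter windows of this length, 72.3% held an E-box, 14.7% an MCAT element, 13.6% a TATA element and 3.19% a MEF2 element. A match describes the letters in the window and is not a shown site.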

How the data were processed

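Per the deposited description files, the authors counted reads per annotated miRNA gene on mm10 with GENCODE M4; the aligner and its settings were not given in the sources used here. The deposited files hold whole-number counts in 3 columns (unstranded, same strand, opposite strand, read from the layout), and 4 read classes that belong to no gene. Reads with several places stand in such a class, and a gene whose mature sequence lies at several loci is counted too low. Counts came from the same-strand column; read classes stayed out of all totals. GENCODE M21 (GRCm38) named 1894 of 1973 identifiers.

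Levels are CPM of the same-strand gene total, with 95% Wilson intervals and the SD over 2 libraries. The 360 genes with at least 10 counts in both libraries were tested between the libraries, given each gene's sum, with the exact binomial test (two-sided) after TMM scaling (edgeR 4.0.16, R 4.3.3), with Benjamini-Hochberg adjustment at 0.05 and a pseudocount of 0.5 reads in log2 ratios. Ratio intervals are exact and cover counting error only. Intervals and p-values treat reads as independent. Sequences came from RefSeq tables; SciPy 1.17.1 was used.

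The members and lists were chosen with earlier results of these data known. Genes named are the members, miRNA genes overlapping them, the 3 genes nearest Mir206 and Mir208b in level, and from the muscle precursor list the 3 highest and any called gene beyond 1.5-fold; marker lists were taken whole. Alternatives were other scalings (DESeq2 1.42.0 size factors, gene totals, TMM over all genes), the unstranded column, count minimums, a pseudocount of 5, the total without its most abundant gene and leaving out each library.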

Additional observations from a re-analysis of the deposited data

Results flagged for a closer look

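Reads with several places in the genome, which lie outside the analysed column, numbered 3179149 in replicate 1 and 4058237 in replicate 2. They are not assigned to genes, so the part of them that came from miR-1a or miR-133a was not tested.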

How the results depend on the processing

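With the unstranded column and other totals, the levels of the 8 genes and their share of counts moved by less than 1 SD. These genes had no counts on the opposite strand, so the unstranded column could change their levels only through the total. It could not change the ratios of Mir206 to Mir133b and to Mir208b, and says nothing on their stability. Leaving out a library says nothing on stability, since with 2 libraries it always gives the value of the other: Mir206 at 570 CPM (replicate 1) or 314 CPM (replicate 2) against a mean of 442, and its ratio to Mir208b at 14.6 (replicate 1) or 5.17 (replicate 2) against a mean of 9.89. With a count minimum of 100 in both libraries only 2 of the muscle genes could be tested, Mir206 and Mir208b, and both passed, so the count of differing members was 2. Mir499 missed the threshold when every gene with a count was tested (log2 ratio -0.77, adjusted p = 0.0535, exact binomial test), and its adjusted p ran between 0.0308 and 0.0535 over the alternatives. The log2 ratio ran between 0.84 and 0.86 for Mir206, between -1.18 and -0.94 for Mir208a and between -0.66 and -0.62 for Mir208b, past the test each time it was run. TMM over all genes, chosen after seeing the data, called 199 genes. With 18-base windows, 96.1% of Mir133b windows had 1 place, and with 1 mismatch allowed miR-133b-3p had 3. Genome-wide searches were not run, because no genome of the build was at hand. No paired analysis was possible because there is 1 group. Leaving out a library leaves no ratio between libraries. Among the 5 tested muscle genes Mir208a had the fewest counts, at 16 counts in replicate 1 and 46 in replicate 2.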
